A study of Mus musculus with 2 samples.

Results

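The mouse Skint genes encode membrane proteins of the butyrophilin-like immunoglobulin family that are made mainly by skin epithelium and by thymic epithelium. Skint1, whose product is needed in the thymus for the maturation of the invariant gamma-delta T cells that settle in the epidermis, gave the family its name. These dendritic epidermal T cells sit among keratinocytes, survey them for damage and take part in wound repair. Less is established about what the other members do. The account below covers Skint1 to Skint10 in basal cells of mouse skin epidermis, where open chromatin was read by ATAC-seq, an assay in which a transposase inserts into accessible DNA.

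There was 1 library from control epidermis (genotype given as WT) and 1 library from epidermis with ablation of the basal lineage; the sources used here do not give the ablating agent, the time after it, the driver of the markers or the age of the mice. For each, 50000 basal cells were sorted as α6 integrin high, CD34-, Lrig1- and carrying the fluorescent markers given as YFP+/GFP+/RFP+, and were titled K14, a keratin of basal keratinocytes. All 10 genes were matched by symbol to RefSeq genes of GRCm38.p6, the assembly behind mm10. A peak was taken as a Skint peak if it overlapped a member gene, or lay within 50 kb of one that was its nearest protein-coding gene, which gave 19 of 84591 nuclear peaks. The genes were chosen by the ratio of ablation to control in these same 2 libraries, so the ratios are a description and support nothing beyond themselves. With 1 library per group no difference was tested. The intervals given are 95% Clopper-Pearson intervals of the reads, which cover counting error only and not variation between animals, sorts or libraries. PCR copies are not independent molecules, so even the counting error may be larger than the intervals show.

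Values are the authors' normalized reads per peak. Reads in nuclear peaks numbered 17056996 in control and 12463908 in ablation, with medians of 76 and 62 per peak. Skint peaks were weak and short beside the table. They held between 6 and 175 reads in a library, their median length was 410 bp against 551 bp for all peaks, and their median mean signal was 26.8 normalized reads against 55.2. All 6 basal keratinocyte markers checked (Krt5, Krt14, Trp63, Itga6, Itgb4 and Col17a1) had peaks, 89 of them above the signal filter.

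Skint peaks had less signal in the ablation library. Summed over the 19 peaks, signal was 856 normalized reads in control and 625 in ablation, a ratio of 0.730 (0.664 to 0.802) and a log2 ratio of -0.45. The same sum over all nuclear peaks had a log2 ratio of -0.09. Of the 19 peaks 16 had a lower value in ablation and 3 a higher one. Among the 16 peaks that passed the filter on mean signal (13.96 normalized reads, the 10th percentile), 14 lay below 0 on the log2 scale with a median of -0.40, where 51.3% of all tested peaks lay below 0 and their median was -0.01. At least 2-fold lower were 4 of the 16 (25.0%), against 1.88% of all tested peaks and 2.65% of tested peaks in the same range of signal. At least 2-fold higher were 0 of the 16, against 4.48%. Without the filter 6 of 19 peaks were at least 2-fold lower, against 2.98% of all peaks. The counting interval lay below 1 for 6 of the 16 (37.5%), against 18.2% of all tested peaks, and above 1 for 2 (12.5%, against 15.0%). The sum was lower in ablation under all 3 other scalings tried. Dividing by library totals over the table, mitochondrial peaks included, moved the median of all tested peaks by -0.33, to -0.35. There 14 of 16 Skint peaks lay below 0. Centring on strong gene-end peaks moved that median by 0.12, to 0.11, and 12 of 16 lay below 0. The share of all tested peaks below 0 was not taken under these scalings, so the 51.3% above does not apply to them.

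**Figure D1:**
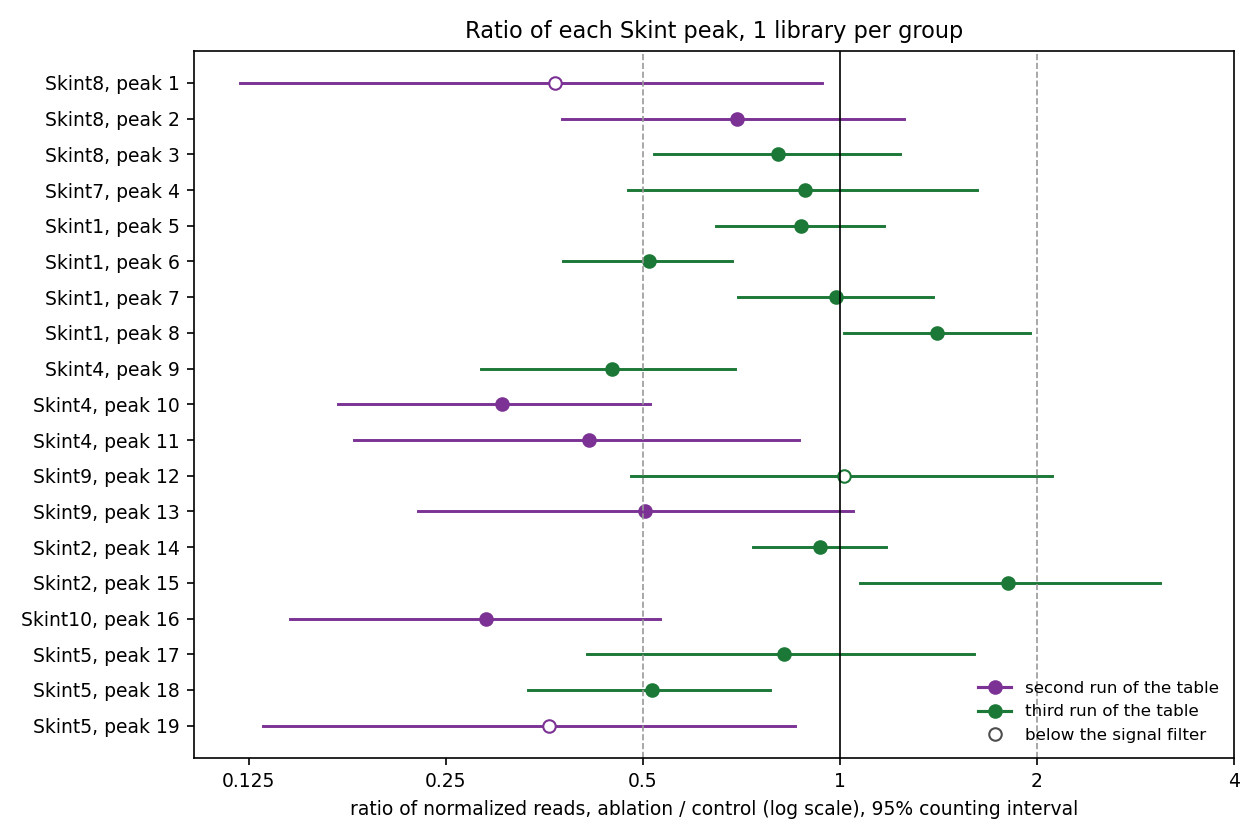
Ratio of normalized reads in ablation over control for each of the 19 Skint peaks, in order along chromosome 4, on a log axis with 95% counting intervals; dashed lines mark 2-fold, open points peaks under the signal filter, and purple and green peaks listed in the second and the third run of the table. The 3 peaks of Skint4 and the 1 peak of Skint10 lie below 0.5, as do the promoter peak of Skint8 and 1 peak of Skint5 that missed the signal filter, while 3 peaks (of Skint1, Skint9 and Skint2) lie above 1.

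**Figure D2:**
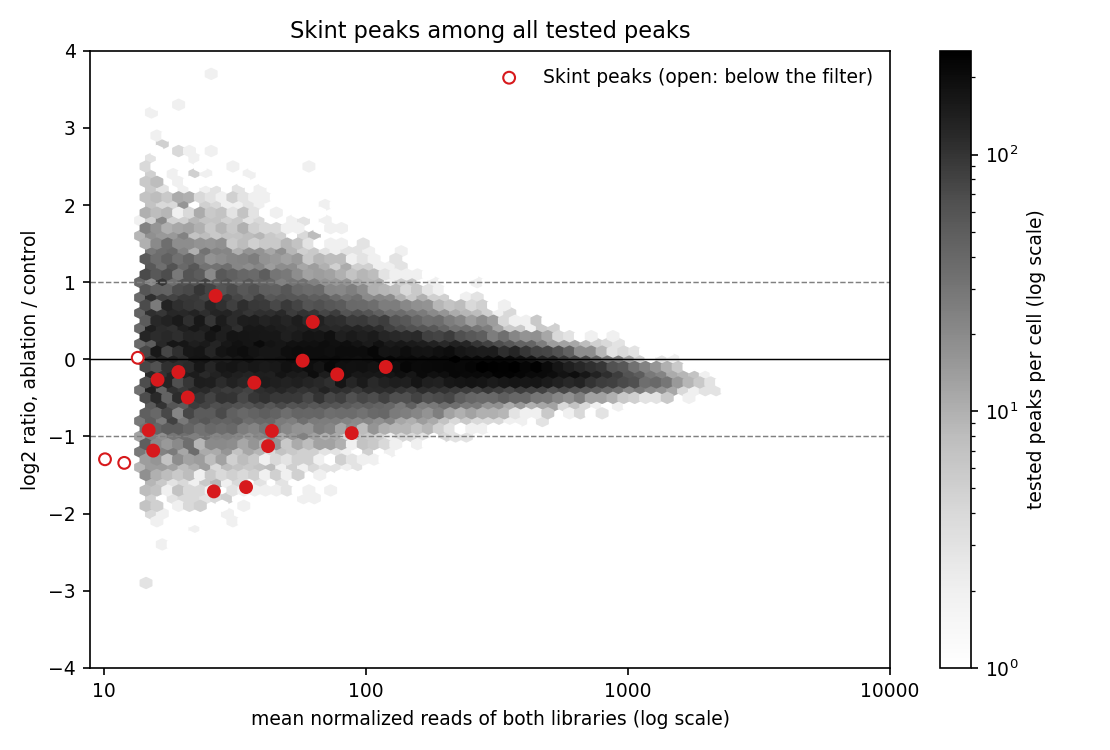
Log2 ratio of ablation to control against the mean normalized reads of both libraries (log axis) for those of the 76147 tested peaks that fall within the axes, shaded by number, with the Skint peaks in red. Of the 16 tested Skint peaks 14 lie below 0 and 4 at or below -1.

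The genes lie side by side on chromosome 4, from the first base of Skint8 at 111919555 to the last of Skint5 at 113999503, a span of 2.08 Mb. Skint8, Skint7, Skint1, Skint4, Skint3 and Skint2 are on the plus strand, and Skint9, Skint10, Skint6 and Skint5 on the minus strand. Peaks were sparse there, with 9.13 per Mb against 37.2 over chromosome 4 and 31.9 over all nuclear chromosomes. The 2 Mb before the cluster were nearly as sparse, with 11.5 per Mb, and the 2 Mb after it held 45.0 per Mb. Within the cluster peaks were uneven, with 40.2 per Mb from Skint8 to the end of Skint4 and 4.91 per Mb from there to the end of Skint5. The rest of the cluster held long stretches without a peak. A stretch of 643936 bp that spans all of Skint6 was matched in length by 542 of 84570 gaps between neighbouring peaks (0.641%), and another of 573077 bp that spans all of Skint5 by 637 (0.753%). A stretch of 341228 bp that spans all of Skint3 and Skint9 and the end of Skint4 was matched by 1144 (1.35%). The median gap was 7251 bp.

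Skint1 and Skint8 were the 2 of 10 members with a peak on a promoter window, here the bases from 250 before to 50 after an annotated start; over all protein-coding genes with such a window 60.7% had one. The 250 bases before the start of Skint1 (chr4:112006019-112006268, plus strand, RefSeq, GRCm38.p6), all of them inside its peak, are shown because 14 of them, in capitals, recur in the family.
Skint1: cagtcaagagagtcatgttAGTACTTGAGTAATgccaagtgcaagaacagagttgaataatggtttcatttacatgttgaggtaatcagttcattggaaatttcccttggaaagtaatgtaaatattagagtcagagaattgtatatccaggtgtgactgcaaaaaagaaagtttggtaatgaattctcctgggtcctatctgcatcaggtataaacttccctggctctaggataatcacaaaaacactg
This word of 14 letters lies at -231 to -218 from the start of Skint1 and, among words of 12 letters or more, was the longest of those held by the most members, here 5. In the same windows of Skint4 (its second start, at -47 to -34), Skint3 (-103 to -90), Skint6 and Skint5 (each -228 to -215) it reads as follows, with the word again in capitals.
Skint4: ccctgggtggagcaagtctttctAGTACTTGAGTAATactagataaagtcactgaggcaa
Skint3: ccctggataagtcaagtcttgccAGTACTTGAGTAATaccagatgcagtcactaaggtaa
Skint6: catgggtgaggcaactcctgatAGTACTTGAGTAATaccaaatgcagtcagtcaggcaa
Skint5: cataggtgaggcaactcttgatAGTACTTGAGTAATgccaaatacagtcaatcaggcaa
These stretches are chr4:112081400-112081459 and chr4:112232119-112232178 on the plus strand and chr4:113287165-113287223 and chr4:113999695-113999753 on the minus strand. On either strand the word was found in 5 of 32851 RefSeq windows of 250 bases, all 5 of them in these Skint genes. Of the 5 genes, Skint1 alone had a peak over the word; the nearest peak to the start lay 136053 bp away for Skint3, 146141 bp for Skint6 and 24690 bp for Skint5. Skint4 had peaks nearer by, 504 bp from its first start and centred at -1310 bp from the second, the start that holds the word.

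Skint8 and its neighbour Skint7, another plus-strand member, shared the longest identical stretch of any pair of windows, 51 bases, where the median over 54 pairs was 9. It is shown because a peak covers it in Skint8, at -230 to -180, and none covers it in Skint7, at -52 to -2 (chr4:111919305-111919405 and chr4:111972855-111972926, both plus strand, shared bases in capitals).
Skint8: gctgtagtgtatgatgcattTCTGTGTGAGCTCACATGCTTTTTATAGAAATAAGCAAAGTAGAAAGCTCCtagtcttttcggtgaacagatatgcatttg
Skint7: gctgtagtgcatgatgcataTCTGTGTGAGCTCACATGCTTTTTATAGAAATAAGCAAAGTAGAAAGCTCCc
How reads that fit more than one copy were placed is not stated, so the split of reads between such copies is uncertain. In the 11 member windows the letters TATAAA occurred in 6 (12.4% of all windows) and TTNNGNAA, a form of the C/EBP site, in 10 (36.8% of all windows), both strands searched; the shared word itself holds the second, so those 5 windows are not separate cases. Nor are Skint8 and Skint7 for TATAAA, since their shared stretch holds it on the other strand. The AP-1 letters TGANTCA and the RUNX letters TGTGGT occurred in 0 of 11 (6.75% and 14% of all windows), and the GRHL letters AACNNGTT in 1 (3.64%). Member windows were rich in A and T, at 57.2% to 65.2% with a median of 62.0%, against a median of 47.6% over all windows. Motif matches are given as a description of letters.

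Skint1, the member with the best known role, had 4 peaks and the largest summed signal of the family. Its promoter peak (chr4:112005791-112006364) held 83.3 normalized reads in control and 72.6 in ablation, a ratio of 0.871 (0.648 to 1.17). A second peak inside the gene (chr4:112008053-112008761), centred 2138 bp past the start, had 117 and 59.9, a ratio of 0.511 (0.378 to 0.684). Another one 5116 bp past the start (chr4:112011066-112011705) was nearly level, with 57.9 and 57.1. The last, a broad peak between Skint1 and Skint4 (chr4:112045255-112047061), went the other way, with 52.2 and 73.5, a ratio of 1.41 (1.01 to 1.95). The 3 peaks that overlap the gene were all lower in ablation, 1 of them by more than counting error, and the higher peak lies 15717 bp outside it. Over the 4 peaks Skint1 stood at 0.847 (0.728 to 0.985), or at a log2 ratio of -0.44 when only peaks overlapping the gene were counted. Exons and introns were not told apart, since the gene table gives gene spans only.

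Skint4, the next gene along, had every one of its peaks at least 2-fold lower. All 3 peaks overlap the gene. One 917 bp past its first start (chr4:112072520-112073346) had 58.6 normalized reads in control and 26.3 in ablation, a ratio of 0.449 (0.284 to 0.693). Another, centred at -1310 bp from its second start (chr4:112079906-112080415), had 53.6 and 16.3, a ratio of 0.304 (0.171 to 0.514). The last (chr4:112096034-112096192) had 21.9 and 9.07, from 31 and 10 reads, a ratio of 0.415 (0.181 to 0.868). Summed, Skint4 stood at 0.386 (0.282 to 0.521). As low a log2 ratio of summed signal was found in 0.395% of the 16699 protein-coding genes with a peak.

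Skint10 and Skint5 were low as well, each from peaks outside the gene. The single peak of Skint10 (chr4:112788850-112789178), 13989 bp from its annotated span in the direction of Skint6, had 40.9 normalized reads in control and 11.8 in ablation. Its ratio of 0.288 (0.145 to 0.532) rests on 58 and 13 reads and was the lowest of the family. Skint6 lies only a little further from that peak, so its assignment to Skint10 rests on distance alone. Skint5 had 1 peak 24690 bp before its span in reading direction (chr4:114024193-114024448), with 17.6 and 6.35, and 2 peaks past its far end. Of these the stronger (chr4:113450679-113451116) had 57.9 and 29.9, a ratio of 0.517 (0.334 to 0.784), and the weaker (chr4:113433114-113433361) had 17.6 and 14.5. Summed, Skint5 stood at 0.545 (0.392 to 0.751).

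Skint8, Skint7 and Skint9 had weak peaks that lay outside the genes. The promoter peak of Skint8 (chr4:111919249-111919470) had 14.8 normalized reads in control and 5.44 in ablation, from 21 and 6 reads, and fell below the signal filter. The 2 peaks past its other end had 24.7 and 17.2, and 41.6 and 33.6, with intervals that include 1, and the gene's sum stood at 0.693 (0.50 to 0.952). That sum takes in the promoter peak. With peaks above the filter alone the log2 ratio of Skint8 was -0.38, against -0.52 over all its peaks. Skint7 had 1 peak, with 20.5 and 18.1 and a ratio of 0.886 (0.475 to 1.62). Skint9 had 1 peak 3435 bp from its start, level at 13.4 and 13.6 and below the filter, and 1 at 39561 bp with 19.8 and 9.98. Its sum of 0.711 (0.423 to 1.17) rests on the far peak, and with peaks within 10 kb alone its log2 ratio was 0.02.

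Skint2 was the exception in direction. Its strong peak in the gene (chr4:112638715-112639811) had the largest mean signal of the family, holding 123 in control and 115 in ablation, a ratio of 0.933 (0.736 to 1.18). The peak over its far end (chr4:112651816-112652312) had 19.1 and 34.5, a ratio of 1.81 (1.08 to 3.08) from 27 and 38 reads. Summed, Skint2 stood at 1.05 (0.849 to 1.30), and its log2 ratio of 0.07 became -0.27 when each library was divided by its total over the table. Skint3 and Skint6 had 0 peaks, and no value can be given for them. In order of ratio the 8 genes with a peak ran Skint10, Skint4, Skint5, Skint8, Skint9, Skint1, Skint7 and Skint2. Neighbours in that order had overlapping intervals. The intervals of Skint10 and Skint4 lay wholly below those of Skint1 and Skint2, and that of Skint5 wholly below that of Skint2.

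By gene, 7 of the 8 members with a peak lay below 0, as did 61.5% of all genes with a tested peak. At least 2-fold lower were 2 of 8, Skint4 and Skint10, against 0.826% of all genes with a peak and 0.400% of those with a tested peak, and at least 2-fold higher were 0 of 8, against 1.63% of genes with a peak. Intervals lay below 1 for 5 of 8 (Skint10, Skint4, Skint5, Skint8 and Skint1), against 31.5% of genes, and above 1 for 0 of 8, against 14.6%. Per kb of peak, control held 62.8 normalized reads for Skint7 and between 83.3 and 125 for the other 7 genes, Skint10 being highest. In ablation the values ran from 34.6 for Skint4 and 35.9 for Skint10 to 94.0 for Skint2. The median over Skint peaks was 90.6 per kb in control and 58.8 in ablation, where all nuclear peaks had 105 and 110.

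The deposited table lists its peaks in 3 successive runs, each sorted by peak name, whose meaning is not stated. In the first run most peaks were higher in ablation and in the second most were lower. Of the 19 Skint peaks 7 (36.8%) were in the second run, against 9.55% of all peaks, 12 in the third and 0 in the first. The 7 comprised the promoter peak of Skint8 and the peak next to it, 2 peaks of Skint4, the far peak of Skint9, the peak of Skint10 and 1 of Skint5. Of the 4 called peaks 3 were among them, out of 5 second-run Skint peaks tested, where 16.1% of all tested peaks of that run were called lower. In the third run 1 of 11 tested Skint peaks was called, against 1.06%. Third-run peaks alone gave a log2 ratio of the family's sum of -0.27, against -0.10 for all peaks of that run.

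Signal summed over the neighbouring genes was nearly level. Up to 2 Mb either side, 98 peaks assigned to other protein-coding genes, Skint11 left out, had a ratio of summed signal of 0.989 (0.961 to 1.02) and a median log2 ratio of 0.12. Of 80 tested 1 was at least 2-fold lower, against 1.88% of all tested peaks, and 8 at least 2-fold higher, against 4.48%. By gene, and with Skint11 included, sums took all peaks of each gene that reaches into the 2 Mb, also peaks beyond it. The peaks of Faf1 lie beyond it and are not among the 98. Intervals lay below 1 for 4 of 22 neighbours with a tested peak (18.2%), among them Faf1 at 0.790 and Spata6 at 0.802, and above 1 for 2 (9.09%). The shares over all genes with a tested peak were 32.1% and 14.6%. Slc5a9, a sugar transporter gene and the nearest neighbour before Skint8, had 306 normalized reads in control and 295 in ablation over 6 peaks, a ratio of 0.965 (0.833 to 1.12). On the other side the nearest gene is Skint11, a relative of the 10 members that the rule does not take in. Its promoter peak (chr4:114163015-114163515) had 36.0 and 9.07, a ratio of 0.252 (0.114 to 0.502), and a weaker peak in the gene had 11.3 and 3.63. With 0.269 (0.139 to 0.483) over both peaks, Skint11 was the only one of 22 neighbour genes with a tested peak to be at least 2-fold lower, and the other 21 ran from 0.790 to 1.41. At the 50 kb limit, the furthest peaks taken in lay 39561 bp and 44530 bp from a member, with log2 ratios of -0.92 and -0.27. The nearest ones left out lay 86891 bp and 88482 bp from Skint2, with 16.9 and 10.9, and 2.12 and 2.72 normalized reads.

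**Figure D3:**
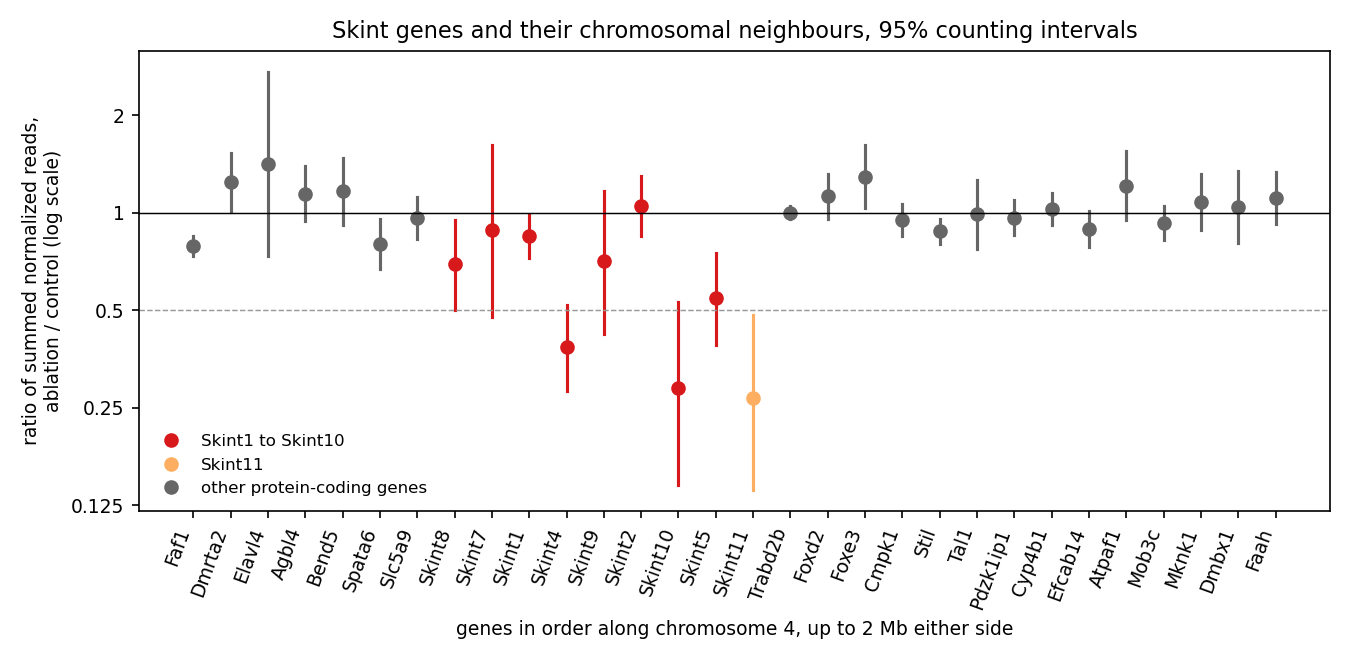
Ratio of summed normalized reads in ablation over control (log axis) with 95% counting intervals for the 8 Skint genes with a peak (red), Skint11 (orange) and 21 other protein-coding genes with a tested peak (grey), in order along chromosome 4. Skint4, Skint10 and Skint11 lie below 0.5, and all 21 grey genes lie between 0.790 and 1.41. Sums take in all peaks of a gene, and those of Faf1, the lowest grey gene, lie more than 2 Mb from the cluster.

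Other genes through which keratinocytes and epidermal gamma-delta T cells communicate, and other butyrophilin relatives, did not share a direction. Of 27 genes on this list 2 were not among the protein-coding genes, 5 had no tested peak, 9 lay above 0 and 11 below (38.5% and 61.5% of all genes with a tested peak), with a median log2 ratio of -0.04 against -0.07 over all genes with a tested peak. At least 2-fold lower were 2 of the 20, Skint11 and H60b, and 0 were at least 2-fold higher, against 0.400% and 1.16% of genes with a tested peak. H60b, a stress ligand of the NKG2D receptor on T cells, had 38.8 normalized reads in control and 18.1 in ablation over 3 peaks. Only 1 of these peaks passed the signal filter. The ratio of H60b was 0.467 (0.265 to 0.792), from 55 and 20 reads. Highest were Tslp, a cytokine of damaged epithelium, at 1.46 (1.29 to 1.67), and Raet1e, another NKG2D ligand, at 1.45 (1.02 to 2.06).

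Markers of other cells in the epidermis were read beside these values. Of 5 suprabasal keratinocyte markers with a tested peak 5 lay below 0, as did 61.5% of all genes with a tested peak, with a median log2 ratio of -0.34 and a summed signal of 6719 normalized reads in control and 5428 in ablation. They ran from Sbsn at 0.762 (0.718 to 0.808) and Krt10 at 0.767 (0.705 to 0.834) to Krt1 at 0.876 (0.784 to 0.979) and Lor at 0.996 (0.908 to 1.09), and Flg had no tested peak. Basal markers had a median of -0.07, from Col17a1 at 0.785 (0.741 to 0.833) and Itga6 at 0.830 (0.792 to 0.870) to Krt14 at 1.04 (0.990 to 1.09) and Krt5 at 1.16 (1.095 to 1.22), and summed to 14265 and 13532. Of 12 T cell markers 7 had a tested peak, 4 above and 3 below 0, with a median of 0.06 and sums of 1169 and 1254. Lck at 0.839 (0.675 to 1.04) and Cd247 at 0.903 (0.766 to 1.06) were lowest, and Jaml at 1.51 (1.17 to 1.95) and Cd3e at 1.35 (1.14 to 1.60) highest, while Cd3d, Cd3g, Klrk1 and Il2rb had no tested peak and Trdc is not among the protein-coding genes. Langerhans cell markers lay above 0 in 6 of 6, as did 38.5% of all genes with a tested peak, with a median of 0.40 and sums of 524 and 716, from Cd74 at 1.08 (0.797 to 1.47) and Cd207 at 1.26 (0.810 to 1.95) to H2-Ab1 at 1.46 (1.23 to 1.74) and Csf1r at 2.07 (1.30 to 3.36). A different share of cell types in the sort and a different openness per cell cannot be told apart in bulk libraries, and the part of the suprabasal markers in the Skint values was not tested.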

How the data were processed

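ATAC-seq of sorted basal epidermal cells gave 2 libraries. The submitters' processing notes name build mm10 and, with no roles or settings, HTSeq, Picard, MACS2 2.1.0.20151222, Trimmomatic and Bowtie2 2.3.4.2; how reads with several matches were treated is not stated. Signal per peak, normalized in a way not stated, comes from 1 table the authors deposited. Values were whole multiples of 1 step per column, within 0.1 of a read (100% of values in control and 99.995% in ablation), so reads were recovered by dividing by the step (0.706 in control, 0.907 in ablation). The control column carries a 2 that its sample title lacks, and the other says Exp rather than Abl; each was matched to the one sample of its group. Columns left unused numbered 0.

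Exact repeats among 116411 rows were merged and 3 mitochondrial peaks left out, except from the library totals over the table used as 1 of the other scalings. Log2 ratios used a pseudocount of 1; ratios with intervals are plain ratios of normalized reads. Counts and medians over peaks were limited to 76147 with a mean signal at or above percentile 10; sums used all peaks of a gene. A count of 0 (3 reads) allows up to 2.12 normalized reads in control and 2.72 in ablation. Whether peak starts count from 0 or 1 is not stated. Strand and starts came from RefSeq promoter windows. Genes of the signalling and marker lists given with values are the 2 highest and 2 lowest of each; members and lists were chosen with earlier results of these data known. Steps were tested on simulated reads. Alternatives covered pseudocount, filter, scaling, distance, fold and table run. Software was matplotlib 3.10.9, scipy 1.17.1, numpy 2.4.6, statsmodels 0.14.6 and pandas 2.3.3 under Python 3.11.15.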

Additional observations from a re-analysis of the deposited data

Results flagged for a closer look

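Mitochondrial peaks were left out of the values above, except that the library totals over the table include them. They differed in size between the libraries: they took 31.2% of all peak reads after ablation (95% Clopper-Pearson interval 31.2 to 31.3) and 7.31% in control (7.30 to 7.32).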

How the results depend on the processing

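The log2 ratio of the family's summed signal stayed below 0 in all 14 alternatives, from -0.79 with division by library totals over the table to -0.27 with peaks of the third run only, the 2 settings that moved it beyond its counting interval. The median log2 ratio of the tested peaks, -0.40, became -0.72 with that division, -0.56 after a loess correction, -0.58 with peaks that overlap a gene only, -0.92 with peaks listed once in the table and -0.20 with third-run peaks only. The count of peaks at least 2-fold lower, 4, became 7 with the division by table totals (5.56% of all tested peaks passed there). With third-run peaks only it became 1 (1.06% of all tested peaks of that run passed). It became 7 at 1.5-fold and 2 at 3-fold, and the count higher, 0, became 1 at 1.5-fold. The shares of all tested peaks past 1.5-fold and 3-fold were not taken, so those counts cannot be set against them. Fewer peaks enter the values of third-run peaks, of peaks listed once and of peaks overlapping a gene. The library totals include the mitochondrial peaks, and dividing by them moved the median of all tested peaks by -0.33. Otherwise the cause was not tested. By gene, Skint4 stayed between -1.69 and -1.13 over 11 alternatives and Skint10 between -2.02 and -1.45 over 8. The single peak of Skint10 drops out with peaks that overlap a gene only, peaks within 10 kb and third-run peaks only, so it has no value there. Dividing by table totals moved Skint1 to -0.58 and Skint2 to -0.27, beyond their counting intervals. The third-run, Skint11 and filtered-sum settings were chosen after seeing the data. No paired analysis was possible because each group has 1 library, and for the same reason no library could be left out.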
